A study of Mus musculus with 7 samples.

Results

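Membrane carriers of 11 solute carrier families were described in mouse regulatory T cells (Treg cells), a CD4 T cell type that keeps immune responses in check. The families are Slc1, Slc2, Slc3, Slc6, Slc7, Slc16, Slc25, Slc29, Slc36, Slc38 and Slc43, which move amino acids, sugars, monocarboxylates, nucleosides and mitochondrial metabolites. Members were taken by gene symbol alone, and 100 of the 15815 genes in the expression table qualified, out of 138 such symbols in the GENCODE M21 annotation. The symbol rule itself uses no measured value, but the carriers were chosen with earlier results of these data known.

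The cells came from Rag-/- mice, which make no mature lymphocytes of the T or B lineage. Every host had been given WT naive T cells, unmarked WT Treg cells and YFP+ Treg cells, and only the last population differed. It was WT in 4 libraries (WT 1 to 4) and deficient in Hpgd in 3 libraries (KO 1 to 3). Hpgd encodes the enzyme that inactivates prostaglandins. YFP+ cells were sorted by flow cytometry from mesenteric lymph nodes 8 weeks after transfer, and 10 ng of total RNA per sample was amplified with SmartSeq2. The line is C57BL/6JRcc with a floxed Hpgd allele and Foxp3-YFP-Cre, so that deletion is limited to cells that express Foxp3, and the labels put the same line entry on the WT libraries. The labels used here state no age. No label states whether the libraries derive from different hosts. The p-values therefore reflect variation among these libraries only, and some of it may be technical. In sorted cells in bulk, fewer cells of one kind and less RNA per cell cannot be told apart.

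Amino acids enter T cells through a small set of plasma membrane carriers. Slc3a2 (the CD98 heavy chain) pairs with light chains of the Slc7 family, among them Slc7a5, to exchange large neutral amino acids, while Slc1a5 and the Slc38 carriers bring in glutamine and other small neutral amino acids. Slc2 carriers admit glucose and Slc16a1 and Slc16a3 move lactate with a proton. In the inner mitochondrial membrane, the Slc25 carriers exchange ADP for ATP, import phosphate and pass malate, aspartate, citrate, acylcarnitines and iron. When amino acids are scarce, the transcription factor Atf4 is known to raise several Slc7, Slc1 and Slc38 genes through an amino acid response element.

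Promoter windows of 250 bases before and 50 bases after each gene start (RefSeq, GRCm38.p6) were held for 73 of the 100 carriers, in 100 windows. They were searched on both strands for the amino acid response element written as TGATGNAA, the E-box CACGTG and the NRF1 core CGCATGCG. The windows given here are those of Slc7a11 and Slc1a4, which hold the response element, of the lactate carrier Slc16a1, which holds an E-box, and of Slc25a5, the most abundant carrier, which held none of these letters. Each reads 5′ to 3′ on the gene's own strand, at chr3:50443564-50443863 (minus strand), chr11:20332664-20332963 (minus), chr3:104638414-104638713 (plus) and chrX:36795347-36795646 (plus), and capitals mark the matches.
Slc7a11: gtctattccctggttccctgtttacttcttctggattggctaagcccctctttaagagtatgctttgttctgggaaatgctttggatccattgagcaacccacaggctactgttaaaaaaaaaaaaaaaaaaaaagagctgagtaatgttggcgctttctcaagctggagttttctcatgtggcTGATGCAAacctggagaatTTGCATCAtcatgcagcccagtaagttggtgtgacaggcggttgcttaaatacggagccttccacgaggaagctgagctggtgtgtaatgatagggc
Slc1a4: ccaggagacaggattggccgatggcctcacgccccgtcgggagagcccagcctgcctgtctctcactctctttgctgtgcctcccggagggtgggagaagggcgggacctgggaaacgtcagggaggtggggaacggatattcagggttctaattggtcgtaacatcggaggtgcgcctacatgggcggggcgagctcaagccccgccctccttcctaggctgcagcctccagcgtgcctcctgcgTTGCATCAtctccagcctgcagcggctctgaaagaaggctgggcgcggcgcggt
Slc16a1: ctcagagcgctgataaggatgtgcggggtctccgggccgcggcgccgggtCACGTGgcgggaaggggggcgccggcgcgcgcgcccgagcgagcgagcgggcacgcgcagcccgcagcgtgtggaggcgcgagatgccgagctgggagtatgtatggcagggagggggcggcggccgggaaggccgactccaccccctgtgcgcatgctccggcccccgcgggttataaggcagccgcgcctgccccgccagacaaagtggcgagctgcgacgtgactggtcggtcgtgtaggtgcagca
Slc25a5: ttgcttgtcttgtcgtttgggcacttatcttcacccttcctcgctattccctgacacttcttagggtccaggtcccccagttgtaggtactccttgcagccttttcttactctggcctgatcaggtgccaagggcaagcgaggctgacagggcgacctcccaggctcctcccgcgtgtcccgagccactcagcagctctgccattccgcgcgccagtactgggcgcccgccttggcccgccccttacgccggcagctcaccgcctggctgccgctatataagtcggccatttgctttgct

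The matches in Slc7a11 lie 66 to 59 and 47 to 40 bases before the gene start, that of Slc1a4 spans the start, and the E-box of Slc16a1 lies 200 to 195 bases before it. The response element stood in 4 of the 100 carrier windows (4%), those of Slc1a4, Slc7a11 and Slc7a7, against 2.77% of the windows of listed genes and 3.97% of all windows. None of the 44 windows of carriers averaging at least 100 normalized counts held it. The E-box stood in 14% of carrier windows, 8.95% of the windows of listed genes and 7.15% of all windows, and the NRF1 core in 1%, 3.22% and 1.87%. A match says that the letters are present, and binding was not measured.

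Levels are normalized counts, that is, the deposited value less its offset of 1. Between genes they are given per kilobase of exon, and the highest was Slc25a5 (ANT2), the ADP/ATP exchanger, at 2053 ± 371 per kb (mean ± SD over 7 libraries). It exceeded the next carrier in 7 of 7 libraries. Then came Slc25a4 (ANT1) at 493 ± 112, the phosphate carrier Slc25a3 at 422 ± 32.8, Slc3a2 at 365 ± 85.8, the oxoglutarate/malate carrier Slc25a11 at 348 ± 88.5 and the glutamine carrier Slc1a5 at 308 ± 37.9 per kb. From Slc25a4 to Slc25a11 each carrier exceeded the next in 4 or 5 of 7 libraries, so the order of these is not resolved. The order also rests on the length used. With the longest coding transcript in place of all exons, Slc25a3 was second at 1451 per kb and Slc25a4 stood at 602.

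**Figure D1:**
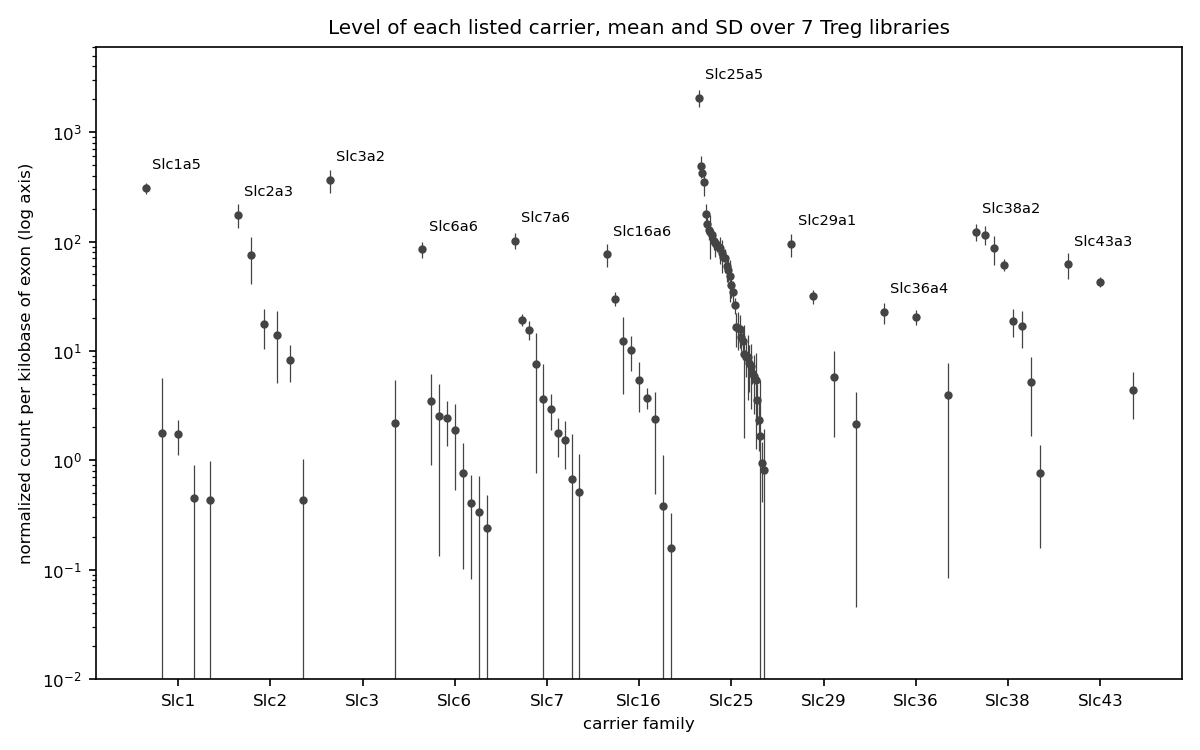
Level of each of the 100 carriers as mean normalized count per kilobase of exon over 7 libraries on a log axis, grouped by family, with bars of 1 SD that run to the lower edge where the SD exceeds the mean. The highest member of each family is labelled, and Slc25a5 at 2053 per kb lies above all others.

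In several families 1 member held nearly all of the summed level. Slc1a5 made up 98.6% of the summed level per kb of the 5 listed Slc1 genes, and Slc3a2 made up 99.4% of its family of 2. Slc6a6, the taurine carrier, made up 87.4% of 9 Slc6 genes, a family that also holds carriers of GABA, glycine and creatine. By contrast the highest of 8 Slc38 genes, Slc38a2, held 28.8% of its family's sum and the highest of 41 Slc25 genes 40.3%. In all, 43 carriers had a mean of at least 100, of which 23 were Slc25 genes, and 75 had reads in every library.

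Hpgd itself, read first as a check of the labels, had 56 reads over the WT and 7 over the KO libraries. Its normalized counts in WT 1 to 4 were 18.7, 9.96, 10.2 and 13.4, and KO 1 to 3 held 0.759, 2.42 and 5.52. The groups did not overlap. Its mean lay under the filter used for the comparison of the groups. Total reads ran from 4135733 (KO 3) to 10622507 (WT 4), and carriers took 0.35% to 0.391% of them. WT 2 and KO 3 lay farthest apart on the first principal component (35.1% of the variance). Among carriers of at least 100, WT 2 was the highest library for 34.9%, as for 35.0% of all such genes, and KO 3 had 14 of the 100 carriers at 0. Treg identity was present, with Foxp3 at 107 ± 42.7 (n = 4) in WT and 124 ± 17.5 (n = 3) in KO and Cd4 at 4309 ± 983 and 4173 ± 1024.

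No carrier differed between KO and WT Treg cells past the threshold. Of 11787 genes with a mean of at least 10, limma called 0 (0%) at an adjusted p under 0.05, where the smallest adjusted p of any gene was 0.189 and 211 genes had an unadjusted p under 0.05. With voom on the recovered reads the number called was also 0. The 78 carriers in that set had a smallest adjusted p of 0.9996. Their estimates were higher in KO for 40 and lower for 38, with a median log2 fold change of 0.03, beside 0.01 and 51.8% higher over all genes tested. At an unadjusted p under 0.05 stood 1 of 78 carriers, Slc25a37, against 1.79% of all genes. In 0 of the 78 did the groups stand fully apart, while 1.71% of all genes tested had every KO library above every WT library and 1.93% had every KO library below.

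The 95% intervals, computed for each gene without adjustment, show how large a difference the values of each carrier allow. For 38 of the 43 carriers with a mean of at least 100 (88.4%) the interval stayed within 1 log2 unit, which is a 2-fold change, on either side of 0, as for 80.3% of all genes at that level. Over all 78 the share was 53.8%, beside 56.4% of all genes. Differences of 2-fold or more therefore stayed inside the intervals of many lower carriers at this depth and spread. A call asks for more than an interval off 0, since p is adjusted over all genes tested. The red blood cell gene Hba-a1, at a log2 fold change of -3.74, was not called (limma adjusted p = 0.189). Differences well over 2-fold could thus go uncalled. Single libraries also carried much of each estimate. For 36 of the 38 named carriers tested, leaving out 1 library turned the sign or changed the log2 fold change by more than 1.5 times, with Slc25a37 and Slc7a6 as the exceptions.

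**Figure D2:**
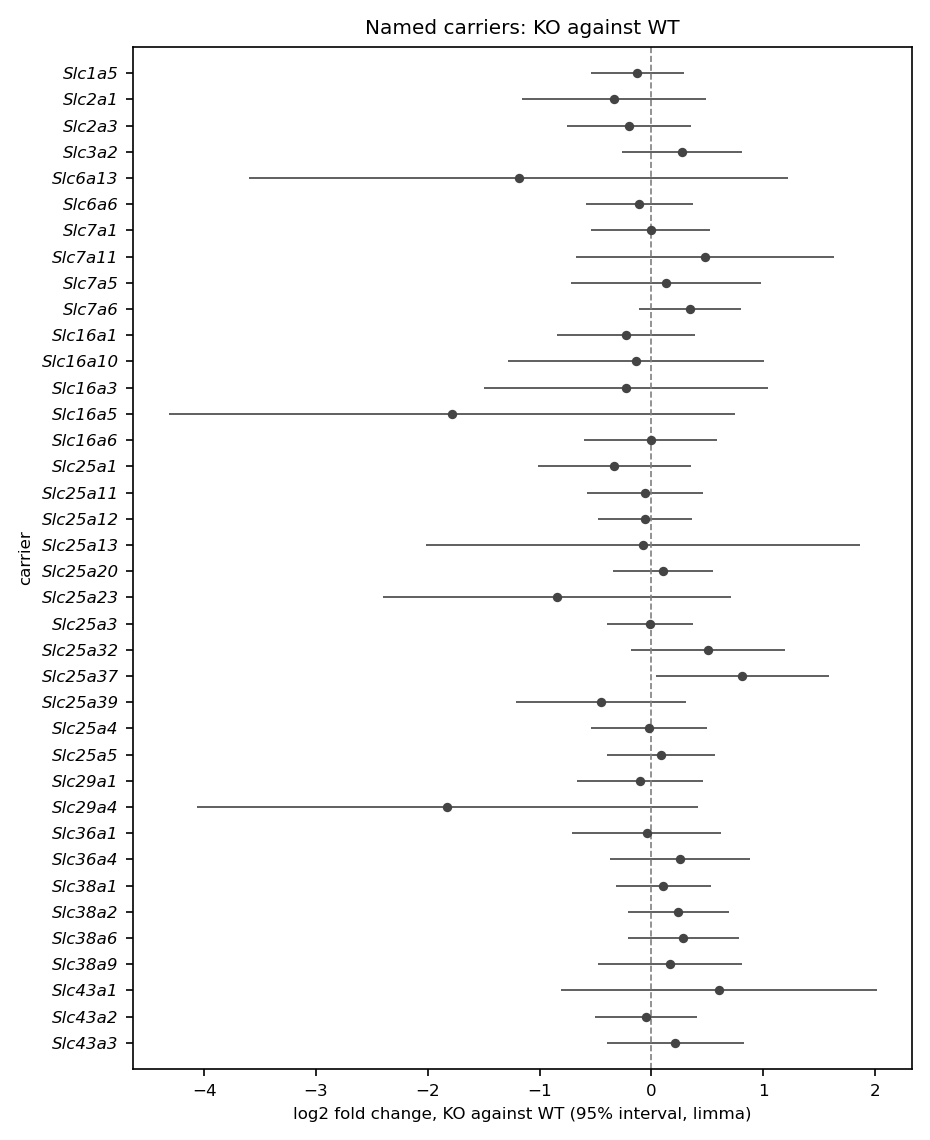
Log2 fold change (KO minus WT, on log2 of normalized count + 1) with its 95% interval for the named carriers that were tested. Only the interval of Slc25a37, 0.04 to 1.59, lies off 0, and wide intervals belong to low carriers such as Slc29a4 and Slc16a5.

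Among glutamine and neutral amino acid carriers, Slc1a5 had 1394, 1294, 1487 and 1152 normalized counts in the WT libraries (1 to 4) and 1371, 1292 and 1017 in the KO libraries (1 to 3). Only KO 3 lay below the WT range, and the log2 fold change was -0.12 (SE 0.19, limma adjusted p = 0.9996, the adjusted p of every carrier tested). Slc38a1 (SNAT1), a sodium-coupled carrier of the same cargo, had 1053, 1065, 826 and 1159 in WT and 1127, 1230 and 947 in KO, a difference of 0.11 (SE 0.20). Slc38a2 (SNAT2), its neighbour on chromosome 15 with 44478 bases between them, had 811, 899, 1347 and 1018 in WT and 1136, 1142 and 1274 in KO, a difference of 0.24 (SE 0.21). The groups overlapped for all of these, and WT 3 was at once the lowest library for Slc38a1 and the highest for Slc38a2. Slc38a6 had an estimate of 0.29 (SE 0.23), with the KO libraries (965, 945 and 1032) inside or just above the WT range (546 to 1004). Without WT 2, the lowest library, it was 0.10. Slc38a9, the lysosomal arginine sensor that acts on mTORC1, had 303 ± 111 in WT and 327 ± 65.0 in KO. Over the Slc38 family 7 of 8 listed genes were tested, with 5 estimates higher and 2 lower.

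Slc3a2, the heavy chain, had 1031, 1701, 765 and 1327 in WT against 1409, 1377 and 1414 in KO. The KO libraries were closely alike (SD 20.2) and all lay inside the WT range (SD 402), for a log2 fold change of 0.28 (SE 0.25). Without WT 2 the difference was 0.46, with an unadjusted limma p of 0.0345 and an adjusted p of 0.999, and without WT 3 it was 0.08, with an unadjusted p of 0.723. The light chain Slc7a5 (LAT1), which carries leucine and other large neutral amino acids, was low, at 55.7 ± 10.6 in WT and 61.4 ± 14.9 in KO. Slc7a6 (y+LAT2), which exchanges arginine for glutamine, had the higher level per kb (102 ± 17.0 against 15.7 ± 3.19 for Slc7a5). It had 402, 340, 482 and 454 in WT and 543, 478 and 566 in KO, and 2 of 3 KO libraries exceeded every WT library (log2 fold change 0.34, SE 0.21, limma unadjusted p = 0.128). Slc7a1, the cationic amino acid carrier, had 224 ± 35.7 in WT and 222 ± 25.1 in KO (difference -0.01, 95% interval -0.54 to 0.53). Slc7a11, the cystine carrier with 2 matches in its window, had 51.7, 15.4, 53.2 and 27.4 in WT and 37.2, 51.7 and 51.5 in KO, so the KO values fell inside the WT range. Slc7 genes tested numbered 8 of 10, with 6 estimates higher and 2 lower.

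Slc1a4, a carrier of alanine, serine and cysteine whose window also holds the element, was barely detected. Its reads in WT 1 to 4 were 0, 0, 0 and 10, and those in KO 1 to 3 were 0, 2 and 22, with a mean under the filter, so no test was made. Slc43a2 (LAT4), another leucine carrier, was among the steadiest, at 438 ± 63.2 in WT and 421 ± 16.8 in KO (difference -0.05, SE 0.21). Slc43a1 (LAT3) was low, at 20.9 ± 10.4 and 30.6 ± 12.4. Slc43a3, a nucleobase carrier, was the highest of its family per kb and had 256 ± 56.5 in WT and 303 ± 92.3 in KO. The proton-coupled carriers Slc36a1 and Slc36a4, which also work on lysosomes, had 116 ± 8.34 and 134 ± 5.21 in WT against 115 ± 30.2 and a mean of 165 in KO. For Slc36a4 the KO mean rests on KO 3 at 223, since the other 2 KO libraries (130 and 144) lay in or just above the WT range of 127 to 139. The aromatic amino acid carrier Slc16a10 had 28.3 ± 4.31 and 26.4 ± 8.73. The taurine carrier Slc6a6 had 734 ± 101 and 690 ± 159, and Slc6a13, a GABA carrier, had 12.4 ± 8.31 and 7.36 ± 6.92.

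**Figure D3:**
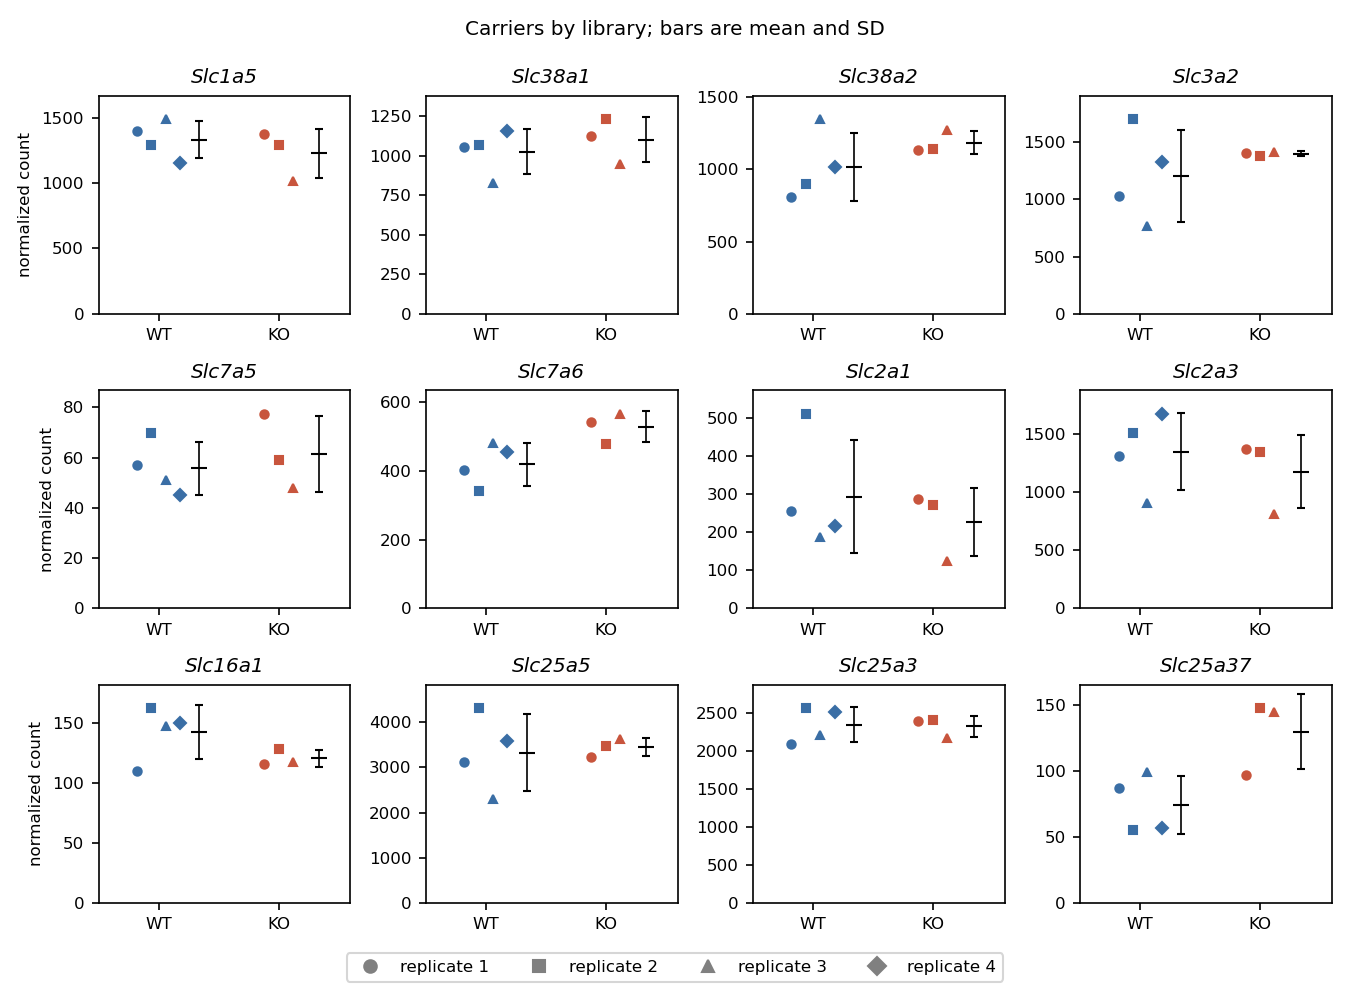
Normalized count of 12 carriers in each of the 4 WT (blue) and 3 KO (red) libraries, with marker shapes for the replicate and bars for mean and SD. In every panel the groups overlap, and for Slc3a2 the KO libraries (1377 to 1414) lie close together inside the WT range (765 to 1701).

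Of the glucose carriers, Slc2a3 (GLUT3) had 1308, 1504, 906 and 1673 in WT and 1366, 1344 and 815 in KO, and Slc2a1 (GLUT1) had 255, 511, 187 and 216 in WT and 287, 271 and 125 in KO. Per kb of exon, Slc2a3 exceeded Slc2a1 (176 ± 42.7 against 75.4 ± 34.7). The differences were -0.20 (SE 0.26) and -0.33 (SE 0.38), and for both KO 3 was the lowest library. Without KO 3 the estimates of both turned positive, so no direction is given.

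Lactate carriers had lower levels per kb, at 30.0 ± 4.53 for Slc16a1 and 5.36 ± 2.61 for Slc16a3. Slc16a1 (MCT1) had 110, 162, 147 and 150 in WT and 115, 128 and 118 in KO, where WT 1 lay below the KO libraries and the other WT libraries above them (log2 fold change -0.22, SE 0.29). Slc16a3 (MCT4), the form linked to lactate export, had 22.0, 57.0, 21.5 and 23.2 in WT and 27.3, 33.9 and 14.7 in KO, and WT 2 alone lay above the KO range. Slc16a6 was the highest of the family per kb, with 377 ± 112 in WT and 366 ± 66.4 in KO. All 6 Slc16 carriers tested had estimates below 0, from -1.79 for Slc16a5 to -0.01 for Slc16a6. That of Slc16a5 rests on KO 3, which had 0 beside 28.1 and 84.8 in the other KO libraries and 61.6, 60.7, 18.1 and 64.0 in WT, and without KO 3 the estimates of Slc16a3, Slc16a5, Slc16a6 and Slc16a10 turned positive. Basigin (Bsg), which brings MCT1 and MCT4 to the cell surface, stood at 854 ± 217 per kb, above Slc16a1 per kb.

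Of the nucleoside carriers, Slc29a1 (ENT1) had 392 ± 102 in WT and 362 ± 79.9 in KO. Slc29a4, a carrier of monoamines, had 20.9, 17.2, 11.3 and 37.3 in WT and 21.2, 8.08 and 0 in KO. Its estimate of -1.83 (SE 1.04, limma unadjusted p = 0.102) was the lowest of all 78 carriers, and its 95% interval reached from -4.07 to 0.41. It rests on KO 3 at 0, and without that library the estimate was -0.55.

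Mitochondrial carriers made up 41 of the 100 genes, of which 37 were tested, with 19 estimates higher, 18 lower and a median of 0.03. The means of the ADP/ATP exchangers differed by less than the spread between libraries. Slc25a5 had 3112, 4309, 2298 and 3589 in WT and 3240, 3475 and 3630 in KO (log2 fold change 0.09, SE 0.22), and Slc25a4 had 1181 ± 351 and 1131 ± 147 (-0.02, SE 0.24). These genes are similar in sequence, and the sources used here do not give how reads common to both, or to processed copies elsewhere, were assigned. Slc25a3, the phosphate carrier, was one of the steadiest, with 2098 to 2568 in WT and 2170 to 2416 in KO and a coefficient of variation of 7.78% over all libraries. Its difference was -0.01, with a 95% interval of -0.39 to 0.37.

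Carriers of the malate-aspartate shuttle, which passes reducing equivalents into mitochondria, were not called either. Slc25a12 (aralar) had 526, 591, 528 and 512 in WT and 533, 560 and 465 in KO, the lowest coefficient of variation of all carriers at 7.36%. Its counterpart Slc25a13 (citrin) was low and uneven, at 2.2, 38.9, 50.9 and 38 in WT and 22.8, 14.5 and 25.7 in KO. Slc25a11 had 603, 1146, 656 and 640 in WT and 776, 672 and 673 in KO. WT 2 alone lay above the KO range, and the other WT libraries lay below it. Its log2 fold change of -0.06 (SE 0.24) turned positive without WT 2. The citrate carrier Slc25a1 had 203 ± 46.7 and 166 ± 63.1 (-0.33, SE 0.31), and the carnitine-acylcarnitine carrier Slc25a20, used in fatty acid oxidation, had 539 ± 78.4 and 577 ± 54.2 (0.10, SE 0.21).

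Slc25a37 (mitoferrin-1), which imports iron for heme and iron-sulfur clusters, was the carrier with the smallest p. It had 86.9, 55.2, 99.5 and 56.9 normalized counts in WT and 97.1, 148 and 145 in KO. KO 2 and KO 3 exceeded every WT library and KO 1 lay just below WT 3, so the groups overlapped. The log2 fold change was 0.81 (SE 0.36, 95% interval 0.04 to 1.59, limma unadjusted p = 0.0411, adjusted p = 0.9996), which does not pass. Over 18 other settings it ran from 0.60 to 1.01 and its unadjusted p from 0.0157 to 0.136. Slc25a37 is best known from red cell precursors, and genes of the red blood cell list had lower values in KO. Its 5 listed genes of 8 summed to 642 to 2809 in WT and 77.4 to 239 in KO, and all 4 tested (Hba-a1, Hba-a2, Hbb-b1 and Hbb-bt) had an unadjusted p under 0.05 but passed no adjusted threshold. The part of these transcripts in the Slc25a37 values was not tested.

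Other mitochondrial carriers with the smallest p values were likewise not called. Slc25a32, which carries folate or FAD, had 250, 162, 256 and 298 in WT and 237, 288 and 552 in KO, and its estimate of 0.51 (SE 0.32) turned to -0.03 without both WT 2 and KO 3. Slc25a39, which is needed for mitochondrial glutathione, had 352, 630, 287 and 252 in WT and 325, 340 and 160 in KO. Its estimate of -0.45 (SE 0.35) turned to 0.18 without the same 2 libraries, so neither direction stands without them. The ATP-Mg/phosphate carrier Slc25a23 had 72.6, 38, 29.4 and 9.14 in WT and 22.0, 20.2 and 9.19 in KO (-0.85, SE 0.72). Without WT 1 that estimate was -0.42 and without KO 3 -0.47. The 40 tested carriers not described by this rule had log2 fold changes from -0.55 to 1.37, and none had an unadjusted p under 0.05.

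**Figure D4:**
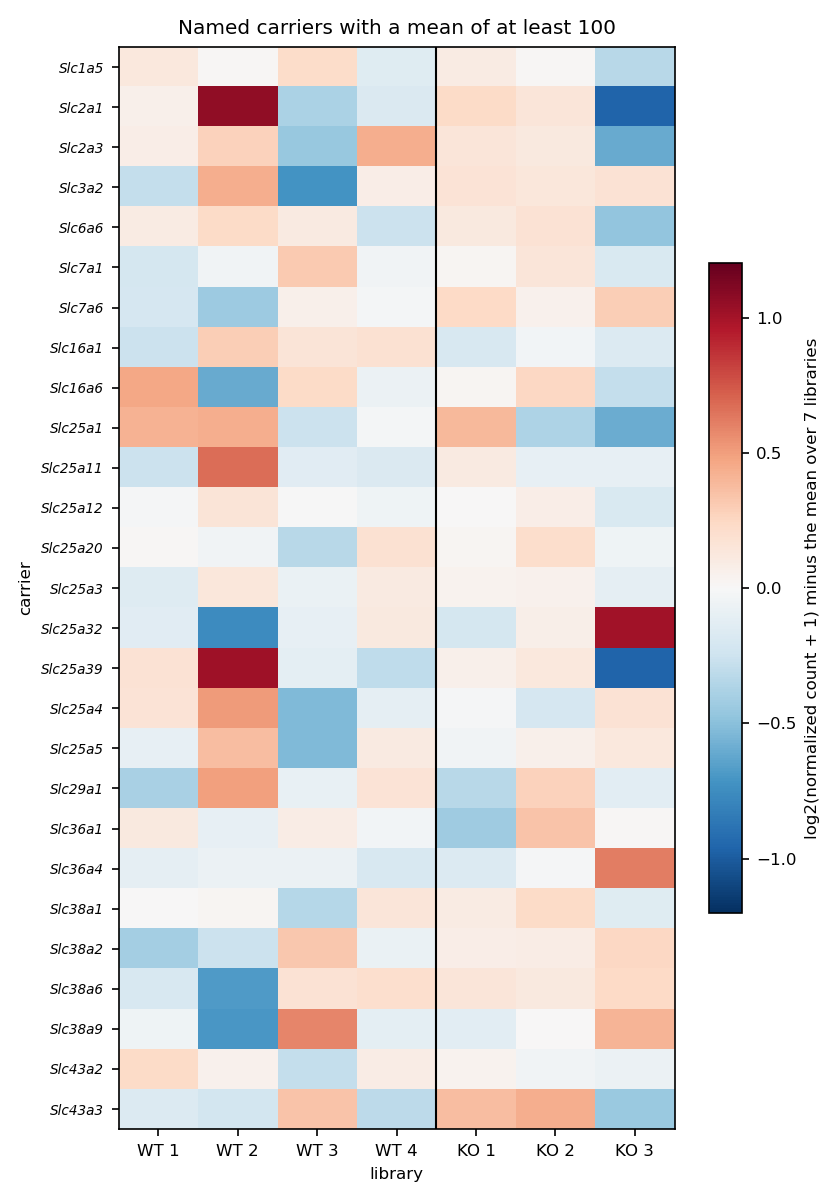
Deviation of each named carrier with a mean of at least 100 from its mean over 7 libraries, in log2 units (red above, blue below), by library. Values run from -0.96 to 1.06, and over all 43 carriers at that level the median absolute deviation is largest in WT 2 (0.30), against 0.13 to 0.23 in the other libraries.

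Which carrier of a pair or small group prevails was read as a share of summed levels per kb, computed within each library. This reading was added after the values had been seen. Not every group shares 1 cargo, since Slc7a5 and Slc7a6 differ in theirs and Slc3a2 is the heavy chain of the light chains summed with it. Slc25a5 held 80.7% ± 1.99 (SD, n = 7) of the 2 ADP/ATP exchangers, Slc2a3 70.8% ± 6.30 of the 2 main glucose carriers, and Slc16a1 85.3% ± 4.67 of the 2 lactate carriers. Slc25a12 held 91.1% ± 5.0 of the aspartate-glutamate pair and Slc7a6 86.4% ± 3.56 of Slc7a5 and Slc7a6. Slc1a5 held 62.4% ± 4.34 beside Slc38a1 and Slc38a2, and Slc3a2 72.7% ± 6.23 of the sum of itself and its light chains (Slc7a5, Slc7a6, Slc7a7, Slc7a8, Slc7a10 and Slc7a11). Slc38a1 held 33.6% ± 5.81 of Slc38a1 and Slc38a2, and Slc25a37 29% ± 9.52 of the 2 mitoferrins, the other being Slc25a28. Between groups the nearest to a difference was Slc1a5, at 64.6% ± 3.49 in WT and 59.5% ± 4.05 in KO. The exact two-sided permutation test gave p = 0.143 for it, adjusted to 0.986 over 9 shares, and the other 8 shares gave exact p values from 0.343 to 1. The smallest p that 4 against 3 libraries allow is 0.0286. With the longest coding transcript as length, the Slc2a3 share was 80.3% and that of Slc1a5 55.0%. By that length the Slc25a37 share was 19.7% and that of Slc38a1 38.7%.

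**Figure D5:**
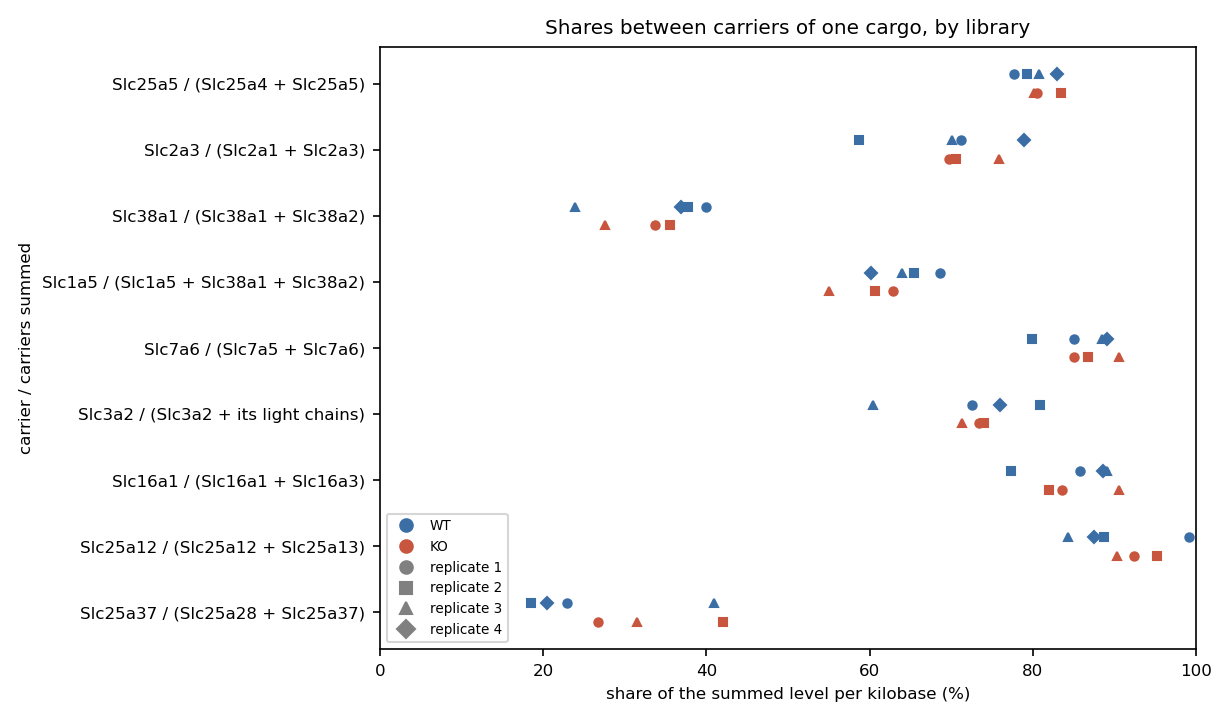
Share (percent of summed normalized counts per kb) of 1 carrier among the carriers summed with it, in each WT (blue) and KO (red) library. The groups overlap in all 9 shares, and Slc25a12 and Slc7a6 hold over 79% in every library.

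The spread between libraries was wider in WT than in KO for 29 of the 43 carriers with a mean of at least 100 (67.4%), close to the 65.5% of all genes at that level. Without WT 2 these shares were 58.1% and 47.6%. Slc25a12 varied least within groups (log2 SD 0.11) and Slc2a1 most (0.65), while their levels per kb were 72.3 and 75.4.

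Lists of genes that work with the carriers held no called gene. Of 21 tested amino acid response genes, 11 had higher and 10 lower estimates (median 0.05). Ddit4 and Cars had the smallest p, at -0.47 (SE 0.27) and -0.52 (SE 0.32). Every KO library lay below every WT library for Ddit4, but only just, with KO 3 at 270.3 and WT 4 at 271.3. Its estimate was -0.27 without WT 2. For Cars the groups overlapped, and its estimate was -0.29 without KO 3. The mTORC1 amino acid sensing list had 18 higher and 18 lower of 36 tested (median -0.03), with Kptn at -0.51 (SE 0.32) and Tsc2 at -0.41 (SE 0.28), the latter -0.16 without KO 3. In this list Tbc1d7, named after its values were seen, had 72.5 ± 15.9 in WT and 48.8 ± 0.863 in KO with no overlap (-0.53, SE 0.38). Genes of glutamine, branched-chain amino acid and polyamine metabolism had 12 higher and 8 lower of 20 (median 0.04), with Gclc, the catalytic subunit for glutathione synthesis, at 0.60 (SE 0.33) and Arg1 at -1.82 (SE 1.07). Without KO 3 these were 0.38 and -0.72, and Arg1 was at 0 in KO 3. Dbt, named after its values were seen, had 77.2 ± 18.3 in WT and 111 ± 3.52 in KO with no overlap (0.54, SE 0.34). Over all genes tested the median was 0.01. Every KO library lay above every WT library in 1.71% of them and below in 1.93%.

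Among shuttle and mitochondrial matrix enzymes, 11 estimates were higher and 7 lower of 18 tested (median 0.02), and 2 had groups that stood apart. Cpt1a, which makes the acylcarnitines that Slc25a20 imports, had 618, 639, 729 and 821 in WT and 1018, 978 and 907 in KO (a log2 difference of 0.47, SE 0.19, limma unadjusted p = 0.0282, adjusted p = 0.9996). Crat, which turns acylcarnitine back to acyl-CoA or the reverse, had 53.9, 62.5, 50.9 and 55.5 in WT and 34.2, 30.7 and 1.84 in KO (-1.95, SE 0.78, limma unadjusted p = 0.0270). KO 3 carried much of the Crat estimate, which was -0.76 without it. Neither passed adjustment, and a share of 1.71% and 1.93% of all genes tested stood apart in these directions. Slc25a20 itself did not stand apart. Of 21 partners and carriers with other names, 10 were higher and 11 lower (median -0.01). Sfxn3, a mitochondrial serine carrier, had 531, 512, 544 and 484 in WT and 379, 414 and 335 in KO (-0.46, SE 0.20, limma unadjusted p = 0.0369), and Timm22, which inserts Slc25 proteins into the inner membrane, had 336 ± 67.7 and 256 ± 11.1 (-0.37, SE 0.24). For both every KO library lay below every WT library, and neither was called. Among these partners Ucp2 stood at 518 ± 137 per kb and Mpc1, a subunit of the pyruvate carrier, at 368 ± 65.3, beside 49.4 ± 7.71 for its partner Mpc2. The gap between Mpc1 and Mpc2 rests in part on the length used. Their merged exons span 2082 and 7344 bases, and their mean normalized counts were 767 and 363.

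The 22 carriers with a mean under 10 had from 10 to 77 reads in all over the 7 libraries. They include the kidney and gut cystine carrier subunit Slc3a1, whose reads were 0, 0, 0 and 6 in the WT libraries and 18, 21 and 0 in the KO libraries. In 3 of the 22 (Slc6a5, Slc16a7 and Slc38a8, named after their values were seen) every KO library lay above every WT library on the normalized scale, against 1.91% of all 15815 listed genes. These rest on few reads, for Slc38a8 0, 2, 0 and 5 in WT against 5, 5 and 3 in KO, and without a test no difference is claimed.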

How the data were processed

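The authors deposited 1 table of normalized signal, with genes in rows and the 7 libraries in columns. Of software, the submitters' processing notes list kallisto 0.44, CASAVA 1.8, DESeq2, Partek 6.6 and R 3.3.1, and as build mm10, without saying what each did. Sequencing was on a NextSeq 500 (bcl2fastq2 2.20), per the labels' protocols. In all 7 libraries 100% of values minus the offset of 1 were whole multiples of 1 read, within 0.01, which gave reads per gene. The size of 1 read was derived in each library from its smallest value above 0. The notes do not say whether these reads were counted directly or are estimates rounded to whole reads. SmartSeq2 keeps neither strand nor molecular identifiers, so antisense reads are not separated and reads are not independent molecules.

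KO was compared with WT with limma 3.58.1 (R 4.3.3), applied to log2(normalized count + 1) under a trended prior, no covariate and Benjamini-Hochberg adjustment over 11787 genes with a mean of at least 10. The design assumed that pseudocount on normalized counts, and 1 was added after the offset had been removed. Values of every library or group are given for 39 carriers, namely 30 of known cargo, any called, the 5 smallest p in each direction, and the highest per kb of each family, plus the 2 smallest p of each pathway list. The carriers, the gene lists and the rule were chosen with earlier results of these data known. Levels per kb use merged GENCODE M21 exons, which may be longer than the transcripts made. The code was tested on simulated data. No 2 libraries agreed within sampling noise (chi-square per degree of freedom of at least 12.8). Alternatives were other pseudocounts, filters, scalings, priors and weights, voom, a replicate block and leaving libraries out.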

Additional observations from a re-analysis of the deposited data

Results flagged for a closer look

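The 4 WT libraries were checked for a library far from the other 3 in 48 quantities (39 named carriers and 9 shares between carriers). Of these 4 were flagged, all of them carriers, where chance flags about 1 in 20 normally distributed quantities. The 48 quantities share the same 4 libraries, so the flags are not independent. Slc25a11 stood at 1146 normalized counts in WT 2, beside 603 to 656 in the other WT libraries. Slc16a3 stood at 57.0 in WT 2, beside 21.5 to 23.2. Slc16a5 stood at 18.1 in WT 3, beside 60.7 to 64.0. Slc1a4 stood at 7.03 in WT 4, from 10 reads, with 0 in WT 1 to 3, where any reads in WT 4 give a flag.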

How the results depend on the processing

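No carrier was called under any of 18 alternatives, and the carriers' median log2 fold change ran from 0.00 to 0.09. Of the 38 named carriers tested, 16 kept the sign of their estimate throughout and 22 had another sign in at least 1 alternative. Over all genes, where the count was 0 as reported, array weights called 4 genes, the replicate block 3 and the set without both WT 2 and KO 3 called 4, none of them a carrier. Leaving out each library in turn called 0 genes, with the carriers' median between 0.01 and 0.08. The KO minus WT difference in the Slc16a1 share, 0.16 percentage points, was -5.07 without both WT 2 and KO 3, and the cause was not tested. The labels do not say whether replicate numbers pair the libraries. Correlations of same-numbered deviations were 0.01, -0.04 and 0.09, too few values to settle it. Only WT 3 correlated best with its own number. With the number as a replicate block the carriers' median was 0.05, with 43 estimates higher and 35 lower. The planned count models (edgeR and DESeq2) were left out because the values as deposited, with their offset, were not whole multiples of 1 read. Once the offset was removed they were, and voom on these recovered reads was the only model of reads that was run. Low carriers had the widest intervals and KO 3 the fewest reads. The part of depth in these intervals was not tested.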

Other observations

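Markers of other cell types of the lymph node had reads in both groups. Summed normalized counts ran from 352 to 1605 in WT and 665 to 2321 in KO for 9 myeloid genes, from 142 to 274 and 197 to 254 for 6 dendritic cell genes, and from 2031 to 5700 and 2479 to 2809 for 7 CD8 T and NK cell genes. They ran from 320 to 751 and 327 to 433 for the 3 listed B cell genes, and from 543 to 904 and 570 to 740 for the 5 listed stromal and endothelial genes. None of these genes was called by limma at an adjusted p under 0.05. At an unadjusted p under 0.05 none of these lists held a gene, unlike the red blood cell list.

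Several carriers lie next to each other in the genome, and 7 neighbouring pairs had at most 200000 bases between them. The closest pair was Slc25a29 and Slc25a47 on chromosome 12 (162 bases apart, GRCm38), followed by Slc25a43 and Slc25a5 on chromosome X (18448 bases). Slc25a5 had the highest level per kb of all carriers, while Slc25a43 had a mean of 13.8 normalized counts.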
